A study of Homo sapiens with 6 samples.

Results

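The platelet-derived growth factors (PDGFs), the vascular endothelial growth factors (VEGFs) and the PDGF receptors were followed through the RNA-seq of BT549 cells. BT549 is an established, mesenchymal-like breast cancer cell line. The genes were chosen by family, with earlier results of these data already known. They were the 4 PDGF ligands PDGFA, PDGFB, PDGFC and PDGFD, the 2 receptors PDGFRA and PDGFRB, and the 4 VEGF family ligands VEGFA, VEGFB, VEGFC and PGF. All 10 were found among the 23346 genes of the deposited count table.

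The study asked how the loss of basonuclin-2 (BNC2), a zinc finger protein, alters gene expression. In one group of 3 libraries, wild-type BT549 cells had received negative control (NC) siRNA, and in the other group of 3 libraries they had received BNC2 siRNA. Both groups were transfected transiently at 20 nM in medium with foetal calf serum and their RNA was prepared on day 6. The methods describe the libraries as biological replicates, all of 1 cell line, and the BNC2 siRNA as an equal mixture of 3 siRNAs.

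PDGFs and VEGFs belong to 1 superfamily of dimeric, secreted ligands. PDGFs bind the receptor tyrosine kinases PDGFRA and PDGFRB, which drive the growth and migration of fibroblasts, pericytes and other mesenchymal cells. PDGFA and PDGFB are cleaved inside the cell, whereas PDGFC and PDGFD leave the cell as latent proteins that must lose their CUB domain before they can bind a receptor. VEGFs bind FLT1, KDR and FLT4, mostly on endothelial cells, with neuropilins as co-receptors. VEGFA drives the growth of blood vessels and is a known target of hypoxia-inducible factors (HIFs), and VEGFC drives the growth of lymphatic vessels. In breast tumours, such ligands are generally viewed as signals from the tumour cell to the stroma and vessels around it.

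The siRNAs are shown first, since they set the comparison. The sense strands are given, with the 19 bases of the duplex in capitals and the overhangs in lower case. In the BNC2 siRNAs these bases are identical to the target, with which the antisense strand, not shown, pairs.
BNC2 siRNA (1): GACUUGUGAUCAGUGUAAAtt
BNC2 siRNA (2): GGAAGACAUUCUAUGACAAtt
BNC2 siRNA (3): CCUCUGUACGAAGCCGAAAtt
NC siRNA: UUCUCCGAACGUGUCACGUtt

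All 3 BNC2 siRNAs matched BNC2 transcripts over these 19 bases. In the transcripts of the 10 growth factor and receptor genes, the longest run shared with any of the 4 siRNAs on either strand was 10 bases, between BNC2 siRNA (2) and PDGFC. Effects of shorter seed matches on these genes were not tested.

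Promoter windows were available from the RefSeq table of GRCh38.p14 for 7 of the 10 genes (PDGFA, PDGFD, PDGFRA, PDGFRB, PGF, VEGFB and VEGFC), in 12 windows of 300 bases that run from 250 bases before a transcription start to 50 bases after it. Of these, 4 are printed, for PDGFA and PDGFRA, which fell after BNC2 knockdown, and for VEGFB and VEGFC, which did not pass the test. PGF fell as well, and its windows are described but not printed. Capitals mark the GC box GGGCGG on either strand, the core that SP1-type factors bind.
PDGFA, minus strand, chr7:519797-520096: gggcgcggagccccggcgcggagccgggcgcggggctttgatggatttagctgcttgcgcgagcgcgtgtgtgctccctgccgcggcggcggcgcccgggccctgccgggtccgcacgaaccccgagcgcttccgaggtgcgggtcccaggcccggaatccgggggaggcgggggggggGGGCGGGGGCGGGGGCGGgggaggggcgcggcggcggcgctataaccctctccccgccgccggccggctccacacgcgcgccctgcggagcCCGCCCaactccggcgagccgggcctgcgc
PDGFRA, plus strand, chr4:54229043-54229342: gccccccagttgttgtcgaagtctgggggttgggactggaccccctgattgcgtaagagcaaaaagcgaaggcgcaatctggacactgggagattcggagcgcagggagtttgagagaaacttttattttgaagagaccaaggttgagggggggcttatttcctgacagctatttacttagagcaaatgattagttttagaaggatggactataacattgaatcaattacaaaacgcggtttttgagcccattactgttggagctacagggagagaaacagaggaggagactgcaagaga
VEGFB, plus strand, chr11:64234334-64234633: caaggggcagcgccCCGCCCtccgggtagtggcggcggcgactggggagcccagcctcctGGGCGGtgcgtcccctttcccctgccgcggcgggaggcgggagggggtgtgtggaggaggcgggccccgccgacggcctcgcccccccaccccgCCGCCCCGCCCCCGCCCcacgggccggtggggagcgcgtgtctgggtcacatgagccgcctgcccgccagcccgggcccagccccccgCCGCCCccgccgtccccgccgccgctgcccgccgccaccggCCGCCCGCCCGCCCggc
VEGFC, minus strand, chr4:176792873-176793172: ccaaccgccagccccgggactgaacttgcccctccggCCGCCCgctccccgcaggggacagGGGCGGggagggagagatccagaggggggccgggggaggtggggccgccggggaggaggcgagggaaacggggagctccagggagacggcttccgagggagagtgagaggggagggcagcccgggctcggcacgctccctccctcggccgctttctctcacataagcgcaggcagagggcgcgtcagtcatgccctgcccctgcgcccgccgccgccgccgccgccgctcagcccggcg

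The PDGFA window printed was 81.7% G and C and held 4 GC boxes, and the other 3 PDGFA windows of the table held 70.3% to 72.7% and 1 to 5 GC boxes. The VEGFB window was richer still, at 84.7% with 9 GC boxes, and the VEGFC window held 2 GC boxes at 76.3%. The windows of PGF, which fell, held 77.7% with 4 GC boxes and 73.0% with 2. The PDGFRA window printed held 47.0% G and C and no GC box, but the other PDGFRA window of the table held 66.7% and 2 GC boxes, where the median over all 35116 windows of the table was 58.7%. A GC box was present in 45.0% of all windows. The EGR1 motif GCGGGGGCG, searched on both strands and able to overlap a GC box, was found 2 times in the PDGFA window printed, 2 times in another PDGFA window and 2 times in the VEGFB window, and in 5.07% of all windows. The hypoxia response core ACGTG occurred in 21.4% of all windows and in none of the 12 described here. The NF-kB motif GGGANTTTC (1.28% of all windows) was likewise in none of them. The loose AP-1 pattern TGANTCA, with any base at N (7.71% of all windows), was found 1 time, as TGAATCA in the PDGFRA window printed. Whether these motifs or the content of G and C bear on the changes in expression was not tested. No window was available for PDGFB, PDGFC and VEGFA.

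The libraries held between 16093978 and 18246254 counts, and between 37.7% and 41.1% of reads fell on no counted gene. In such a library 3 counts, the limit that a count of 0 allows, correspond to between 0.164 and 0.186 CPM (counts scaled to library size). BNC2, the targeted gene, was measured at 65.6, 51.5 and 58.6 CPM with NC siRNA and at 35.5, 36.6 and 41.6 CPM with BNC2 siRNA. It was lower in each BNC2 siRNA library, with a log2 fold change and standard error (SE) of -0.63 ± 0.09, at an adjusted p of 8.2e-06 in the quasi-likelihood test of edgeR. The labelled mesenchymal cell type was checked against markers. All 7 markers of mesenchymal breast cancer cells were tested (5 rose and 2 fell, where 72.9% of all genes tested were called), whereas 7 of 8 luminal epithelial markers did not reach 1 CPM in 3 libraries, and the summed level of the 8 was between 2.85 and 4.27 CPM. Of 10 endothelial markers, CDH5 and CLDN5 were at 0 counts in each library, while ESAM had 123, 103 and 103 counts and TEK 5, 15 and 9 with NC siRNA.

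A gene was tested when more than 1 CPM was present in at least 3 of the 6 libraries, and called where its adjusted p did not exceed 0.05. Of the 10 genes, 8 were tested, and PDGFD and PDGFRB were not. Of the 8, PDGFC rose, PDGFA, PDGFB, PDGFRA, VEGFA and PGF fell, and VEGFB and VEGFC did not pass the test. Of all 12186 genes tested, 72.9% were called, 36.6% as higher and 36.2% as lower with BNC2 siRNA, so 6 calls among 8 genes were close to the background. In 6 of the 8, no overlap was seen between the libraries of the groups, against 74.9% of all genes tested. PDGFB and PGF passed the filter only through the NC siRNA group, where they were higher. The results below therefore rest on the size and direction of single genes. As these are bulk libraries, fewer cells that express a gene and less RNA per cell cannot be told apart.

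**Figure D1:**
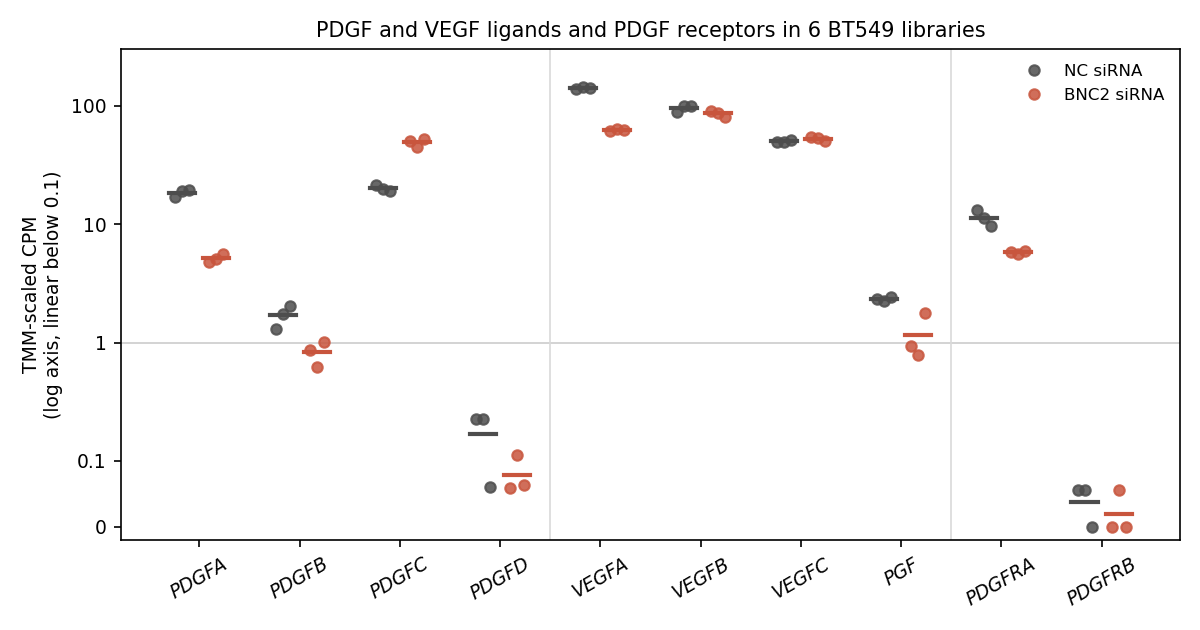
Level of each gene in the 6 libraries, as TMM-scaled CPM on an axis that is logarithmic above 0.1 and linear below it, with 1 point for each library and a bar at the mean of the 3 libraries of a group. PDGFC is the gene with higher BNC2 siRNA libraries and no overlap, PDGFA lies furthest below its controls among the 8 tested, VEGFB and VEGFC overlap, and PDGFD and PDGFRB lie near 0. Heights of different genes are not corrected for transcript length.

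The PDGF ligands moved in opposite directions. PDGFA, the ligand that binds PDGFRA and not PDGFRB, lies on chromosome 7 of GRCh37 (536895 to 559933, minus strand). It was counted 303, 341 and 321 times with NC siRNA and 82, 90 and 88 times with BNC2 siRNA. The highest BNC2 siRNA library was far below the lowest control. Its level fell from 18.5 ± 1.24 to 5.15 ± 0.422 CPM (SD, n = 3 in each group), to 27.8% of the control level, with a log2 fold change of -1.85 ± 0.12 (SE, edgeR adjusted p = 5.39e-10). Among all genes tested, 10.1% were more than 2-fold lower.

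PDGFC, which binds PDGFRA once its CUB domain is removed, was the ligand that rose. The gene lies on chromosome 4 (157681606 to 157892951, minus strand). Its counts were 381, 353 and 316 with NC siRNA and 871, 799 and 817 with BNC2 siRNA, so that each BNC2 siRNA library was above each control. The level rose from 20.1 ± 1.25 to 49.3 ± 3.68 CPM (SD, n = 3), which is 2.45-fold (1.29 ± 0.08 on the log2 scale, SE, with an edgeR adjusted p of 6.34e-10). Rises of more than 2-fold were seen in 8.07% of all genes tested.

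PDGFB, a ligand of both PDGF receptors that recruits pericytes to vessels, was present at a low level. Located on chromosome 22 (39619364 to 39640987, minus strand), it was counted 23, 31 and 34 times with NC siRNA and 15, 11 and 16 times with BNC2 siRNA. The groups did not overlap, but the gap between 23 and 16 counts was small. The log2 fold change of PDGFB was -1.02 ± 0.30 (SE, edgeR adjusted p = 0.00622), from 1.69 ± 0.378 to 0.837 ± 0.201 CPM (SD, n = 3). When any 1 of the NC siRNA libraries was left out, PDGFB no longer passed the filter on low counts and had no test.

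PDGFD, the ligand that signals mainly through PDGFRB and that is also secreted in latent form, was nearly absent. It lies on chromosome 11 (103777917 to 104035107, minus strand). Its counts were 4, 4 and 1 with NC siRNA and 1, 2 and 1 with BNC2 siRNA. The ratio of the summed counts, BNC2 siRNA to NC siRNA and corrected for library size, was 0.458 with a 95% exact interval of 0.103 to 1.64, which covers counting error only. A change in PDGFD in either direction was not detectable at this depth.

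PDGFC and PDGFA lay close together in the control cells and far apart after knockdown. Within a library, the log2 ratio of PDGFC to PDGFA counts was 0.33, 0.05 and -0.02 with NC siRNA, and 3.40, 3.14 and 3.21 with BNC2 siRNA. The mean log2 ratio was thus higher by 3.13 with BNC2 siRNA, a shift that library scaling cannot alter because it cancels within a library. The log2 ratio of PDGFA to PDGFB differed by -0.85 with no overlap between the groups, though PDGFB had passed the filter only through the controls. In an exact two-sided permutation test each of these 2 differences had p = 0.1, the smallest that 3 against 3 libraries allow, and an adjusted p of 0.12 over the 6 pairs tested.

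Expressed per kilobase of exon, PDGFC made up 42.7% ± 3.44 of the PDGF ligand RNA with NC siRNA and 85.9% ± 0.906 with BNC2 siRNA (SD, n = 3). PDGFA made up 51.4% ± 2.55 and 11.8% ± 0.962. PDGFB contributed 5.39% ± 1.13 and 2.17% ± 0.378, and PDGFD less than the other three in each library. With the length of the canonical transcript in place of all exons, the share of PDGFC was 37.8% with NC siRNA and 83.5% with BNC2 siRNA. PDGFC thus held the largest share after BNC2 knockdown by either length. In the control cells PDGFA was above PDGFC in each library by either length, by all exons at 48.5%, 52.4% and 53.3% against 46.6%, 41.5% and 40.1%.

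Of the PDGF receptors, PDGFRA was expressed. PDGFRA binds PDGFA, PDGFB and PDGFC and lies on chromosome 4 (55095447 to 55164412, plus strand). Its counts were 233, 202 and 159 with NC siRNA and 100, 99 and 94 with BNC2 siRNA. The control libraries were widely spread, yet the lowest of them remained above the highest BNC2 siRNA library. PDGFRA fell from 11.3 ± 1.78 to 5.80 ± 0.201 CPM (SD, n = 3). This was a log2 fold change of -0.97 ± 0.14 (SE, edgeR adjusted p = 8.19e-06). PDGFRA shares 242 bases of exon with another gene on the same strand in GENCODE 44, and whether reads there were lost to the count depends on the annotation used by the authors.

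PDGFRB, the receptor that marks pericytes and fibroblasts, was close to 0. It lies on chromosome 5 (149493402 to 149535435, minus strand), with counts of 1, 1 and 0 with NC siRNA and 0, 1 and 0 with BNC2 siRNA. The ratio of the summed PDGFRB counts was 0.516 (95% exact interval 0.00874 to 9.91, counting error only). No difference could be read from 3 counts in 6 libraries, and the opposite strand of PDGFRB carried 4. The cells thus expressed PDGFRA with hardly any PDGFRB.

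Among the VEGF family, VEGFA showed the clearest fall. VEGFA lies on chromosome 6 (43737921 to 43754224, plus strand). Its counts were 2449, 2574 and 2346 with NC siRNA and 1048, 1135 and 975 with BNC2 siRNA. Libraries of a group lay close together and the groups were far apart. The level of VEGFA fell from 141 ± 3.11 to 62.4 ± 1.56 CPM (SD, n = 3). This was a log2 fold change of -1.18 ± 0.06 (SE, edgeR adjusted p = 2.34e-11). Reads on the opposite strand of VEGFA, where GENCODE has an overlapping gene, came to 1.13% of the reads of both strands.

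VEGFB, a ligand of FLT1 with a role in the metabolism of muscle and heart, gave overlapping groups. On chromosome 11 (64002056 to 64006736, plus strand), it was counted 1574, 1760 and 1637 times with NC siRNA and 1545, 1549 and 1271 times with BNC2 siRNA. Scaled to CPM, the first NC siRNA library lay among the BNC2 siRNA libraries. The log2 fold change of VEGFB was -0.15 (standard error 0.07) and did not pass the test (adjusted p = 0.0555, edgeR), with means of 95.3 ± 5.72 and 86.1 ± 4.61 CPM (SD, n = 3). The call depended on single libraries, since VEGFB was called as lower without NC siRNA replicate 1 (log2 fold change -0.22, adjusted p = 0.00394) and without BNC2 siRNA replicate 1 (-0.17, adjusted p = 0.0492). It was also called with DESeq2's size factors (-0.15, adjusted p = 0.0431) and with scaling by total counts only (-0.22, adjusted p = 0.00581).

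VEGFC, the ligand of FLT4, lies on chromosome 4 (177604689 to 177714076, minus strand). Its counts were 874, 874 and 856 with NC siRNA and 940, 943 and 788 with BNC2 siRNA. The groups overlapped, at 49.9 ± 1.42 and 52.7 ± 2.29 CPM (SD, n = 3), and VEGFC did not pass the test (0.08 ± 0.07 on the log2 scale, SE, with an edgeR adjusted p of 0.297).

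PGF (placental growth factor), a further ligand of FLT1, was expressed at a low level. It lies on chromosome 14 (75408537 to 75422329, minus strand). Its counts were 41, 40 and 40 with NC siRNA and 16, 14 and 28 with BNC2 siRNA. Replicate 3 of the BNC2 siRNA group was nearer to the controls than the other two. PGF fell from 2.32 ± 0.0842 to 1.17 ± 0.537 CPM (SD, n = 3). This was a log2 fold change of -1.01 ± 0.28 (SE, edgeR adjusted p = 0.00421), and the log2 fold change of PGF was -0.87 without BNC2 siRNA replicate 1, -0.78 without replicate 2 and -1.43 without replicate 3.

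Ratios within a library were also formed between VEGF ligands. The log2 ratio of VEGFA to VEGFB counts was 0.57 ± 0.06 with NC siRNA and -0.46 ± 0.09 with BNC2 siRNA (SD, n = 3), which is a difference of -1.03. For VEGFA to VEGFC, the log2 ratio differed by -1.26, from values of 1.45 to 1.56 in the control libraries to 0.16 to 0.31. For VEGFC to PDGFC, it differed by -1.21, from 1.31 ± 0.12 to 0.10 ± 0.15. In these 3 pairs the libraries of the groups did not overlap, and the exact two-sided permutation test gave p = 0.1 for each, or 0.12 after adjustment over the 6 pairs. The ratio of PGF to VEGFA was higher by 0.12 with overlapping groups (exact permutation p = 0.9, adjusted 0.9), and its sign turned, to -0.23, without BNC2 siRNA replicate 3. The pairs PDGFRB to PDGFRA and PDGFC to PDGFD were not tested because of the low counts of PDGFRB and PDGFD.

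**Figure D2:**
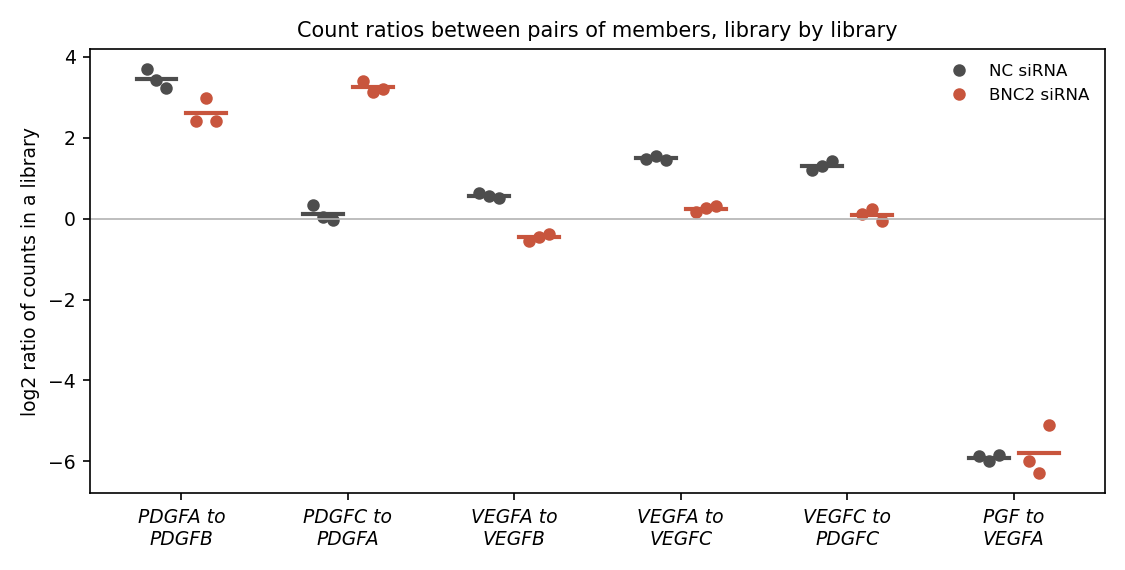
Log2 ratio of the counts of 2 genes in each library, for the 6 pairs tested, with 1 point for each library and a bar at the mean of a group. Ratios do not depend on library scaling, but their height depends on transcript length, so only the shift between groups is compared. The group means of PDGFC to PDGFA differ by 3.13, those of VEGFA to VEGFB and to VEGFC by -1.03 and -1.26, and PGF to VEGFA overlaps.

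To order the genes by level, CPM was divided by exon length. By all exons of a gene, the NC siRNA cells held VEGFB at 48.4 ± 2.90 CPM per kilobase, VEGFC at 19.1 ± 0.541, VEGFA at 9.78 ± 0.216, PDGFA at 4.03 ± 0.271, PDGFC at 3.35 ± 0.208 and PDGFRA at 1.19 ± 0.186 (SD, n = 3). PDGFB (0.424 ± 0.0946) and PGF (0.400 ± 0.0145) followed and did not differ beyond their spread, and PDGFD and PDGFRB were last. The place of VEGFA depended on its length, because the annotation counts 14431 bases of VEGFA exon, retained introns included, against 3609 bases in the canonical transcript. By the canonical length, VEGFA reached 39.1 ± 0.862 CPM per kilobase and came before VEGFC at 22.1 ± 0.626, and PGF (1.33 ± 0.0484) came before PDGFB (0.454 ± 0.101). With BNC2 siRNA, PDGFC came directly after VEGFB and VEGFC by all exons (8.21 ± 0.613), and VEGFC was above VEGFA by either length, at 23.3 ± 1.01 against 17.3 ± 0.432 by the canonical length.

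The genes that receive, cleave or bind the ligands were also measured. Of 6 genes for VEGF receptors, co-receptors and VEGFD (FIGF), 3 were tested, and all 3 were called, 1 as higher and 2 as lower, beside 72.9% of all genes. NRP1, a co-receptor for VEGFA, fell from 280 ± 15.3 to 157 ± 10.8 CPM (SD, n = 3), at a log2 fold change of -0.83 ± 0.06 (SE, edgeR adjusted p = 4.58e-09). NRP2, which binds VEGFC as well as class 3 semaphorins, rose from 124 ± 1.82 to 344 ± 8.52 CPM (1.47 ± 0.05 on the log2 scale, SE, with an edgeR adjusted p of 6.84e-13). With NC siRNA, the counts of NRP1 were 5288, 4858 and 4498 and those of NRP2 2225, 2181 and 2081. With BNC2 siRNA, they were 2512, 2802 and 2632 for NRP1 and 5848, 6008 and 5564 for NRP2. Each co-receptor was thus separated between the groups without overlap, in opposite directions.

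The VEGF receptor kinases were at low counts. FLT4, the receptor of VEGFC, had 21, 31 and 20 counts with NC siRNA and 8, 4 and 7 with BNC2 siRNA (-1.86 ± 0.38 on the log2 scale, SE, with an edgeR adjusted p of 3.02e-04), and it passed the filter only through the NC siRNA group. FLT1 had 3, 0 and 1 counts with NC siRNA and 0, 0 and 1 with BNC2 siRNA. KDR had 2, 2 and 1 counts with NC siRNA and 4, 5 and 0 with BNC2 siRNA, and FIGF had none in any library. Neither FLT1 nor KDR was detectable as different at this depth. The ligands VEGFA, VEGFB and VEGFC were therefore transcribed in cells with hardly any transcript of the receptor kinases FLT1 and KDR.

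Of 12 genes for the processing, release and binding of these ligands, 9 were tested and all 9 were called, with 3 higher and 6 lower, where 72.9% of all genes tested were called. PLAT (tissue plasminogen activator), which cleaves the CUB domain from PDGFC, was counted 334, 338 and 356 times with NC siRNA and 4, 3 and 4 times with BNC2 siRNA. It fell from 19.7 ± 1.48 to 0.219 ± 0.0444 CPM (SD, n = 3), at a log2 fold change of -6.46 ± 0.21 (SE, edgeR adjusted p = 1.40e-13), while its substrate PDGFC rose. PLAU (urokinase), which cleaves PDGFD, rose from 566 ± 1.89 to 796 ± 29.2 CPM (log2 fold change 0.49). Another protease that cleaves PDGFD, ST14, had at most 5 counts in a library and was not tested. CCBE1, a cofactor of VEGFC maturation, fell from 2.32 ± 0.499 to 0.533 ± 0.0965 CPM (log2 fold change -2.11, adjusted p = 9.35e-06, edgeR), and ADAMTS3, the protease it assists, had 9, 4 and 5 counts with NC siRNA and 25, 11 and 22 with BNC2 siRNA and was not tested. PLAT and CCBE1, like FLT4, passed the filter only through the NC siRNA group, and they had no test when an NC siRNA library was left out.

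Proprotein convertases, which cut PDGFA, PDGFB and VEGFC, moved both ways. FURIN fell by 0.41 and PCSK7 rose by 0.34 on the log2 scale, and PCSK5, with at most 13 counts in a library, was not tested. The matrix proteins HSPG2 (perlecan), SPARC and THBS1, which bind PDGFs or VEGFs, fell by 0.90, 0.52 and 0.90 on the log2 scale. CTGF, which binds VEGFA, rose by 0.47. Each of these was past the threshold (adjusted p between 1.73e-09 for THBS1 and 5.18e-04 for PCSK7, edgeR).

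**Figure D3:**
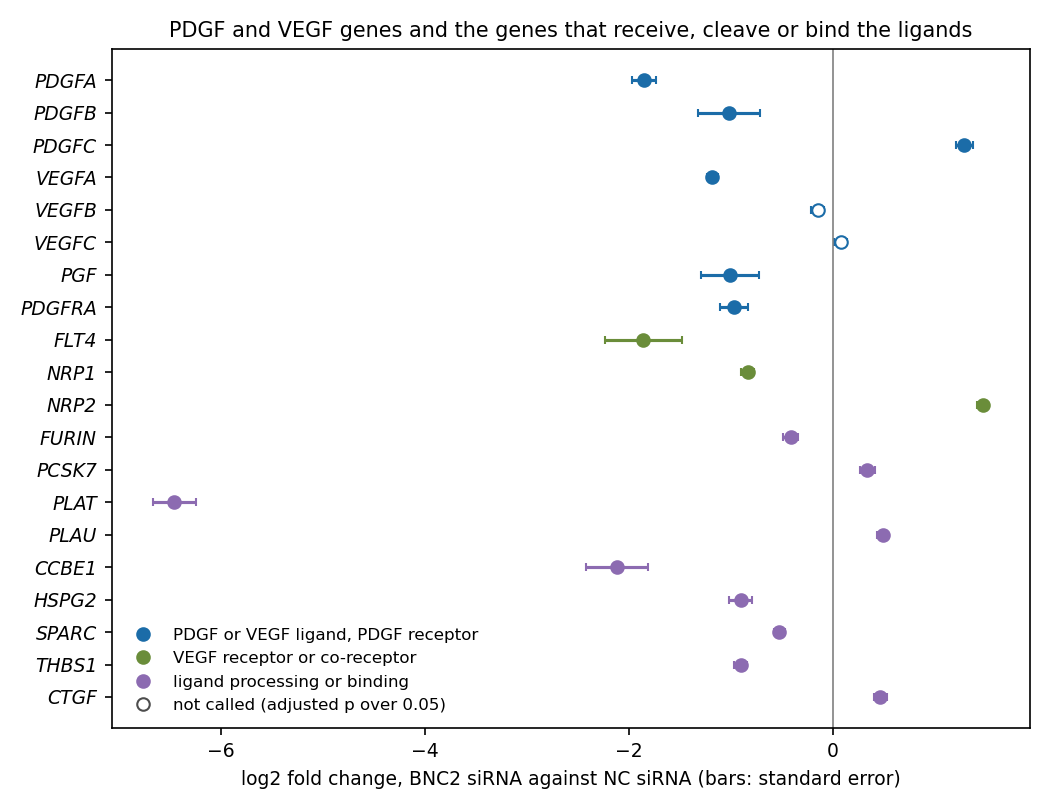
Log2 fold change of BNC2 siRNA against NC siRNA with its standard error, for the 8 ligands and receptors tested (blue) and for the tested VEGF receptors (green) and genes of ligand processing or binding (purple). Open circles did not pass the test. PLAT lies at -6.46 and FLT4 and CCBE1 near -2, whereas PDGFC and NRP2 lie above 1.

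Downstream of the receptors, 24 of 25 genes of receptor-proximal signalling were tested, of which 11 rose, 8 fell and 5 did not pass the test, with a median log2 fold change of 0.06. These 19 calls are to be read against the 72.9% of all genes that were called. Under scaling to the total count alone, 9 rose and 10 fell. Without BNC2 siRNA replicate 1, 9 rose and 5 fell, and with a replicate block 10 rose and 6 fell. The 3 largest falls were FYN, a SRC family kinase (18.2 ± 0.749 to 2.22 ± 0.475 CPM, log2 fold change -3.02), the adaptor CRKL (-1.30) and PIK3R1, the regulatory subunit of PI3 kinase (-0.98). The 3 largest rises were PIK3CB, a catalytic subunit of PI3 kinase (0.88), the kinase YES1 (0.88) and the ubiquitin ligase CBL (0.87), which marks activated receptors for degradation. SRC family kinases therefore did not move together, since FYN fell while YES1 rose.

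Of 16 genes known to respond early to PDGF and other growth factors, 14 were tested, and 6 rose, 5 fell and 3 did not pass the test (median log2 fold change 0.05), again beside 72.9% of all genes called. EGR1, a zinc finger protein induced within minutes by PDGF, was counted 315, 294 and 297 times with NC siRNA and 58, 82 and 66 times with BNC2 siRNA (-2.09 ± 0.13 on the log2 scale, SE, with an edgeR adjusted p of 3.77e-10). IER3 fell by 1.82 and PLAUR, the urokinase receptor, by 1.27 on the log2 scale. HAS2, which makes hyaluronan, rose by 1.81, CYR61 by 1.36 and FOS by 0.95. The list showed no common direction.

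VEGFA was set beside other genes that hypoxia is known to induce. Of 14 such genes, 12 were tested and all 12 were called, 11 as higher (36.6% of all genes tested were) and ADM as lower (log2 fold change -0.37), with a median of 0.82 where the median of all genes tested was 0.00. SLC2A1, the glucose transporter, rose from 68.7 ± 5.93 to 231 ± 5.35 CPM (SD, n = 3, log2 fold change 1.75, adjusted p = 9.02e-13, edgeR). PFKFB4, a regulator of glycolysis, rose from 10.2 ± 1.36 to 51.3 ± 1.57 CPM (log2 fold change 2.32, adjusted p = 2.35e-12, edgeR), and PDK1, which restrains the entry of pyruvate into mitochondria, from 17.6 ± 0.612 to 54.0 ± 3.27 CPM (log2 fold change 1.62, adjusted p = 2.03e-11, edgeR). The fall of VEGFA by 1.18 was thus opposite in direction to that of 11 of the 12. CA9, a carbonic anhydrase known for its induction by hypoxia, had at most 4 counts in a library.

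Of 9 HIF pathway genes, 7 were tested, of which 2 rose, 4 fell and VHL did not pass the test, with 72.9% of all genes called. With single libraries left out 5 to 7 of the 7 were called, 5 without BNC2 siRNA replicate 2 and 7, VHL included, without NC siRNA replicate 1. With the looser filter of edgeR's filterByExpr 8 were tested and all 8 were called, 3 as higher and 5 as lower. The gene added by this filter was EGLN3, which passed it only through the NC siRNA group, where it was high. Its call as lower therefore adds nothing to the count. HIF1A fell by 0.30, EPAS1 (HIF2A) by 0.71 and ARNT2 by 0.46 on the log2 scale. ARNT, the partner of HIF1A and EPAS1, rose by 0.61 and HIF1AN, which restrains HIF activity, by 0.35. EPAS1 was measured at 193 ± 12.9 and 118 ± 2.86 CPM (SD, n = 3). EGLN3, itself induced by HIFs, had 23, 13 and 11 counts with NC siRNA and 0, 0 and 1 with BNC2 siRNA. Each BNC2 siRNA library of EGLN3 was thus lower than each control, but EGLN3 did not pass the filter on low counts used here.

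**Figure D4:**
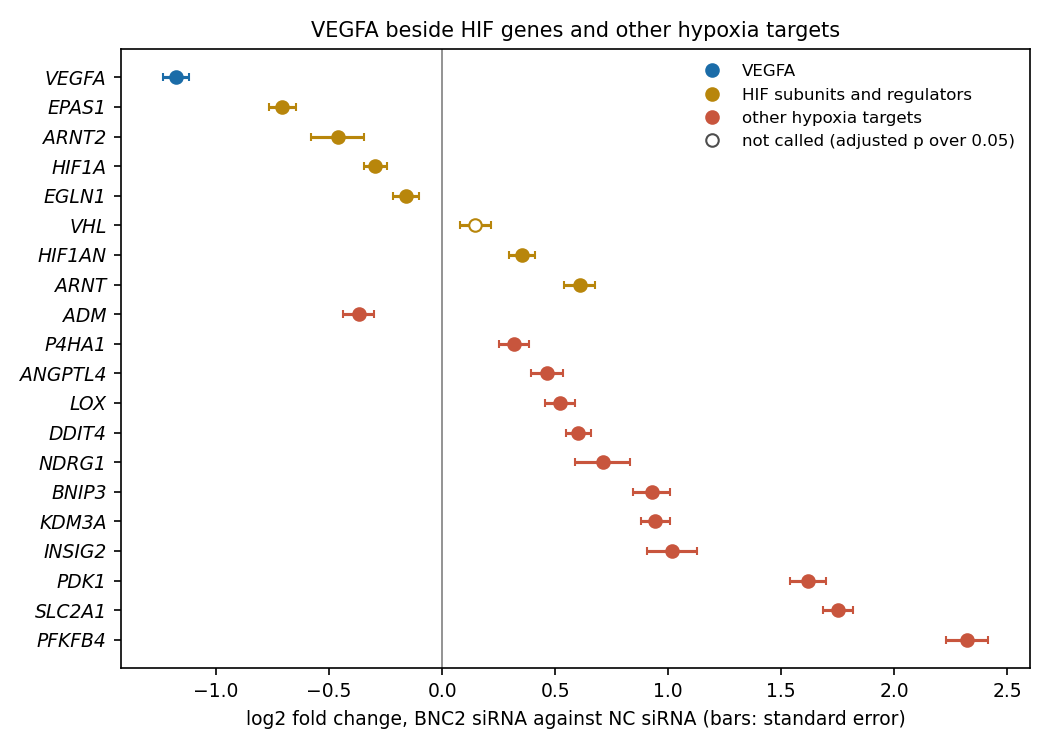
Log2 fold change of BNC2 siRNA against NC siRNA with its standard error for VEGFA (blue), HIF subunits and regulators (yellow) and the tested hypoxia targets (red). The open circle did not pass the test. VEGFA lies at -1.18 and ADM at -0.37, and the other 11 hypoxia targets lie to the right of 0, up to 2.32 for PFKFB4.

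Of 15 other angiogenic ligands and inhibitors, 8 were tested and all 8 were called, with 3 higher and 5 lower, beside the 72.9% called among all genes. The semaphorins, which compete with VEGFs for neuropilins, moved both ways. SEMA3A rose from 13.4 ± 0.835 to 36.5 ± 2.93 CPM (SD, n = 3, log2 fold change 1.44) and SEMA3C by 0.58 on the log2 scale, whereas SEMA3F fell from 10.5 ± 0.555 to 1.95 ± 0.333 CPM (log2 fold change -2.44, adjusted p = 7.61e-10, edgeR). APLN, a peptide that acts on endothelial cells, rose by 0.84. The Notch ligand JAG1 fell by 1.71 and the inhibitor THBS2 by 1.28 on the log2 scale. Angiopoietins were low, with at most 19 counts of ANGPT1 and 5 of ANGPT2 in a library.

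Markers of other cell types, among them cells that respond to PDGF or VEGF, were also counted. Of 9 markers of pericytes or smooth muscle cells, 5 were tested and all 5 fell (RGS5, CSPG4, MCAM, ACTA2 and NOTCH3), where 36.2% of all genes tested fell, and the summed level of the 9 was 166.6 to 178.4 CPM with NC siRNA and 115.4 to 120.4 CPM with BNC2 siRNA. KCNJ8 was at 0 and PDGFRB near 0 in each library. Of 10 endothelial markers, 1 was tested, ESAM, which fell by 3.02 on the log2 scale. ESAM passed the filter through the NC siRNA group, where it was high. The sum of the 10 was 7.28 to 7.90 CPM with NC siRNA and 0.382 to 1.98 CPM with BNC2 siRNA. The fall of this sum was mostly that of ESAM alone (means of 6.30 CPM with NC siRNA and 0.748 CPM with BNC2 siRNA). Of 8 haematopoietic markers, 3 were tested (CD68 and ITGAM rose and CD14 fell), with sums of 114.2 to 127.9 CPM and 141.6 to 153.5 CPM that were almost all CD68 (means of 117 and 144 CPM). ITGAM and CD14 passed the filter through the group in which each was higher. The part of these markers in the results on PDGF and VEGF genes was not tested.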

How the data were processed

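Poly(A) RNA of 6 BT549 libraries was sequenced as single-end reads. The authors aligned these with STAR 2.6.1d to hg19 (iGenomes UCSC annotation) and deposited raw counts of uniquely mapped reads per gene, without normalisation. These are the reverse-strand counts of STAR, which leave out antisense reads. Reads assigned to no gene were kept out of library sizes and tests.

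The counts were analysed with edgeR 4.0.16 in R 4.3.3. The 12186 genes that exceeded 1 CPM in 3 or more of the 6 libraries were scaled by TMM (factors 0.972 to 1.04) and tested with the quasi-likelihood test, without a replicate block, with Benjamini-Hochberg adjustment over all genes tested and calls at 0.05. CPM values are TMM-scaled. Standard errors (SE) of log2 fold changes were derived from edgeR's F statistic (absolute value over the root of F). Two-sided exact permutation tests compared log2 count ratios (pseudocount 0.5), where 3 against 3 libraries allow no p below 0.1. P-values set a group difference against the variation between these replicates, all of 1 cell line. Variation between siRNAs or between cell lines is not covered. On simulated counts, 199 of 200 genes changed 2-fold were recovered among 12100 tested, with 9 false calls. Every simulated gene had the same dispersion, and none of the changed genes was as low as PDGFB or PGF. The simulation therefore does not cover such low genes, nor data in which most genes change, as here. Same-numbered libraries did not deviate together, so no pairing was used. Intervals and floors cover counting error only.

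The genes, lists, motifs and tests were chosen with earlier results of these data known. The EGR1 motif and the canonical transcript length were added after the values had been seen. From each list other than the cell type markers, all genes were named if 6 or fewer were tested, and otherwise at least the 3 largest falls and rises called without overlap. Further genes were named for their role after their values were seen, and markers were given by counts and ranges. Positions and exon lengths come from GENCODE 44 on GRCh37, the assembly of hg19, promoter sequences from the RefSeq table of GRCh38.p14, and siRNA sequences from the study's list. Protein sequences were not used here. Alternatives were edgeR's likelihood ratio test (that of the study), DESeq2 1.42.0, its size factors, scaling by total counts, no filter, filterByExpr, a replicate block, both strands, a ratio pseudocount of 2, other transcript lengths and each library left out in turn.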

Additional observations from a re-analysis of the deposited data

How the results depend on the processing

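PDGFA, PDGFC, PDGFRA, VEGFA and PGF kept their direction and call under each alternative run, and PDGFB under each in which it was tested. PDGFB and PGF had passed the main filter on low counts through the NC siRNA group, where they were higher. Their kept calls under that filter are therefore no independent support. The number of genes called among the 8 ligands and receptors was 5 to 7 when single libraries were left out. The lower counts came without NC siRNA replicates 2 and 3, where PDGFB lost its test. VEGFB gained a call under 4 settings, and the cause was not tested. The log2 ratio of PGF to VEGFA was 0.12 and lay between -0.23 and 0.37 with single libraries left out, where the negative sign came without BNC2 siRNA replicate 3, the library with the highest PGF count of its group. The log2 fold change of BNC2 was -0.73 to -0.56 with single libraries left out. Over all genes, 8084 to 9662 were called. With a replicate block, 8400 genes and 6 of the ligands and receptors were called. The numbers do not pair the libraries, since the deviations of same-numbered libraries correlated at -0.256, -0.0908 and -0.151.

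Levels per kilobase with NC siRNA moved with the length used. With the longest transcript they were 6.75 for PDGFA, 4.40 for PDGFC, 1.78 for PDGFRA, 11.6 for VEGFA, 52.8 for VEGFB, 22.1 for VEGFC and 0.654 for PGF. With the canonical transcript VEGFA was at 39.1 and PGF at 1.33, and PDGFA (6.75), PDGFC (4.40), PDGFRA (1.78), VEGFB (52.8) and VEGFC (22.1) were as with the longest. Depth limits PDGFD and PDGFRB, for which no change could be measured.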

Other observations

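The neighbours of PDGFRA on chromosome 4 gave values that belong to no comparison above. Of 10 relatives of the PDGF receptors and neighbours of PDGFRA, 5 were tested, 3 were called as lower and none as higher, beside 72.9% of all genes called. The number called was 2 with a replicate block, without NC siRNA replicate 3 and without BNC2 siRNA replicate 1 or 3. It was 4, of which 1 was higher, without BNC2 siRNA replicate 2. The same was found with counts of both strands (6 tested) and with no filter on low counts (8 tested). CHIC2 fell by 0.61, CLOCK by 0.54 and FIP1L1 by 0.19 on the log2 scale, against 0.97 for PDGFRA, with overlapping groups for FIP1L1, and SCFD2 (0.17) and SRD5A3 (-0.02) did not pass edgeR's test. KIT, the receptor gene next to PDGFRA, had a single count, with NC siRNA, over all 6 libraries, and FLT3 and PDGFRL had none in any library. LNX1 had 2, 3 and 4 counts with NC siRNA and 7, 4 and 6 with BNC2 siRNA and was not tested. CSF1R, which lies beside PDGFRB on chromosome 5, had 2, 1 and 3 counts with NC siRNA and 7, 11 and 7 with BNC2 siRNA and was not tested.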
